A study of Drosophila melanogaster with 10 samples.

Results

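Cytochrome P450 genes were followed across 5 genotypes of Drosophila melanogaster larvae. A gene was taken as a member when its FlyBase symbol had the form Cyp, a family number, lower-case letters and a gene number, a rule that uses the name and no measured value and that leaves out cyclophilins. The deposited tables held 84 such genes among 17735 gene identifiers. They fell into 22 Cyp4 genes, 24 Cyp6 genes, 6 Cyp9 genes, 7 Cyp12 genes, 4 Cyp28 genes and 21 genes of smaller families.

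Poly(A) RNA from whole 3rd instar larvae was sequenced, with 100 mg of pooled larvae per extraction and 2 libraries per genotype. CTCF larvae carried dCTCFdeltaCP, CTCF Su(Hw) larvae carried dCTCFdeltaCP with SuHwdelta114, CTCF Pita larvae carried dCTCFdeltaCP with PitadeltaCP1, triple-mutant larvae carried all 3 mutations, and wild-type larvae were dCTCFwt. All 5 genotypes were in the y1w1118 strain, and all 4 mutants share the CTCF mutation, so no group has the Su(Hw) or Pita mutation alone. Per the series' design text, the mutations hit the parts of the architectural DNA-binding proteins CTCF, Su(Hw) and Pita that bind the co-factor CP190. Larval sex, the hour within the 3rd instar and whether the 2 libraries of a genotype came from separate cultures were not given in the sources used here, so p-values measure the spread between libraries, which may be technical.

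P450 enzymes are heme proteins that oxidise small lipophilic molecules. Most insect P450s sit in the endoplasmic reticulum and take electrons from NADPH-cytochrome P450 reductase (Cpr) or cytochrome b5. A mitochondrial group takes them from ferredoxins. The Cyp6, Cyp9 and Cyp28 families belong to the CYP3 clan, which holds many enzymes that break down plant toxins and insecticides in midgut, Malpighian tubule and fat body. Cyp4 enzymes oxidise fatty acids and hydrocarbons, Cyp12 enzymes are mitochondrial, and several small families make or inactivate the moulting hormone ecdysone or shape the cuticle.

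Reads assigned to genes ranged between 5670793 and 8220126 per library, and P450 genes took 0.166% to 0.338% of them. Levels below are CPM (read counts scaled to library size) after TMM scaling, which matches libraries on the bulk of their genes. Mitochondrially encoded genes took 34.6% and 24.2% of reads in the CTCF libraries, 8.67% to 18.7% in the other mutant libraries, and 14.2% and 14.6% in wild type. The choice of scaling moved the values: with plain library totals the median gene moved by -0.58, 0.48, 0.49 and 0.14 on the log2 scale in the CTCF, CTCF Su(Hw), CTCF Pita and triple-mutant comparisons with wild type. The library labels were checked on the mutated genes. The su(Hw) mRNA was between 386 and 571 CPM in the 4 libraries with the Su(Hw) mutation and at most 26.3 CPM elsewhere, and pita mRNA was between 152 and 218 CPM in the 4 libraries with the Pita mutation and at most 31.5 CPM elsewhere. CTCF mRNA was between 5.56 and 26.5 CPM in all 10 libraries. Reads outside the altered protein part do not test the mutation itself. The 2 CTCF Su(Hw) libraries differed little beyond counting error, with a chi-square per degree of freedom of 1.78 over genes, against 14.3 to 41.4 for the other pairs, and were kept as 2 libraries.

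The 84 genes were spread over the genome, with 34 on chromosome arm 2R, 16 on 3R, 14 on 2L, 14 on X and 6 on 3L (dm6 coordinates throughout). Many were tandem neighbours: 45 genes lay in 16 clusters with gaps of at most 10 kb. The biggest cluster held 8 genes from Cyp6a22 to Cyp317a1 at chr2R:14871366-14903095. Enough reads for testing were found for 71 genes. Of the 13 untested genes, Cyp4d14, Cyp4d2, Cyp9c1 and Cyp308a1 had 0 reads in every library, and none of the others had more than 68 reads in all. The zeros come with gene overlap: 97.2%, 98.7% and 98.2% of the exon bases of Cyp4d14, Cyp4d2 and Cyp9c1 are shared with another annotated gene, and the unstranded counts used here cannot assign reads on such bases. Over 5% of exon bases were shared in 12 members. Cyp12d1-d had 1 read and its near-identical neighbour Cyp12d1-p had 535 in all, and the split between those copies is uncertain.

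In wild-type larvae a few genes dominated the family. Compared per kb of exon, Cyp28a5 stood at 140 ± 20.8 CPM per kb, Cyp9b2 at 139 ± 18.4, Cyp4g1 at 127 ± 2.78, Cyp4d1 at 99.5 ± 21.4 and Cyp9f2 at 58.9 ± 9.14 (mean ± SD, n = 2). The first 3 lay within each other's spread, and Cyp4d1 and Cyp9f2 followed below them. These 5 genes held 46.6% of the summed per-kb level of all 84 members. The median tested member stood at 6.35 CPM per kb. Cyp4g1 is the oenocyte enzyme that makes the cuticular hydrocarbons that waterproof the insect.

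The share of P450 genes that changed was close to that of all genes in both double mutants and above it in the CTCF and triple mutants. A gene was called when edgeR's adjusted p, over all 10585 genes tested, was below 0.05. In CTCF larvae 13 of 71 tested P450 genes were called, 10 higher and 3 lower (18.3%), against 3.37% of all genes tested. In CTCF Su(Hw) larvae 25 were called, 17 higher and 8 lower (35.2%), against 33.3% of all genes. In CTCF Pita larvae 27 were called, 5 higher and 22 lower (38.0%), against 37.8% of all genes. In triple-mutant larvae 21 were called, 16 higher and 5 lower (29.6%), against 21.2% of all genes. In whole larvae a change in the number of cells of a type and a change in RNA per cell cannot be told apart. Each count depended on single libraries. The CTCF count fell when either CTCF library or either wild-type library was left out. The CTCF Su(Hw) count fell without either CTCF Su(Hw) library, and the CTCF Pita count without wild-type library 1. The triple-mutant count fell without triple-mutant library 1 or either wild-type library. The number of all genes called fell as well in each of these fits, only slightly without triple-mutant library 1. Single calls were also lost without libraries not listed here. Examples are Cyp6a8 in CTCF Su(Hw) larvae without wild-type library 2 and Cyp12d1-p in CTCF Pita larvae without CTCF Pita library 2. Calls below are described as held when they passed in all 20 alternative settings. The settings that ended most calls were library totals and a glue score, which is the mean log2 CPM of 6 salivary glue genes added to the model as a covariate. Among members, DESeq2 in place of edgeR also ended the calls given below for Cyp12d1-p, Cyp28d1 and Cyp6a22 in CTCF Pita larvae. It also ended those for Cyp313a3, Cyp49a1 and Cyp4p2 in CTCF Su(Hw) larvae, and for Cyp313a5 and Cyp6a22 in triple-mutant larvae. A fit of only the groups compared ended those for Cyp9f2 in CTCF larvae, Cyp6a22 and Cyp309a1 in CTCF Pita larvae, and Cyp4d1, Cyp6a22 and Cyp28d2 in triple-mutant larvae.

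The balance of directions was as follows. Higher calls made up 14.1% of P450 genes in CTCF larvae, 23.9% in CTCF Su(Hw) larvae, 7.04% in CTCF Pita larvae and 22.5% in triple-mutant larvae, against 2.2%, 15.8%, 18.6% and 10.9% of all genes. Lower calls made up 4.23%, 11.3%, 31.0% and 7.04% of P450 genes, against 1.17%, 17.4%, 19.2% and 10.3% of all genes. In CTCF Pita larvae the median P450 gene stood at a log2 fold change of -0.34, against 0.00 for all genes. With library totals these medians were 0.14 and 0.48. The P450 calls then split into 9 higher and 6 lower, and those over all genes into 3408 higher and 571 lower. Under TMM scaling the P450 medians were 0.13 in CTCF larvae, 0.10 in CTCF Su(Hw) larvae and 0.29 in triple-mutant larvae. With library totals the P450 calls split into 4 higher and 10 lower in CTCF larvae and 25 higher and 2 lower in CTCF Su(Hw) larvae. In triple-mutant larvae they split into 14 higher and 4 lower. Over all genes those splits were 97 and 1217, 3128 and 509, and 1044 and 571. Across the 4 comparisons, which share their wild-type libraries, 49 members were called at least once and 22 never. Of the 49, 24 were only ever higher, 20 only ever lower, and 5 (Cyp6a2, Cyp6d2, Cyp4p2, Cyp28d1 and Cyp12d1-p) were higher in 1 mutant and lower in another. Only Cyp4e3 was higher in all 4 mutants, and 0 genes were lower in all 4.

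**Figure D1:**
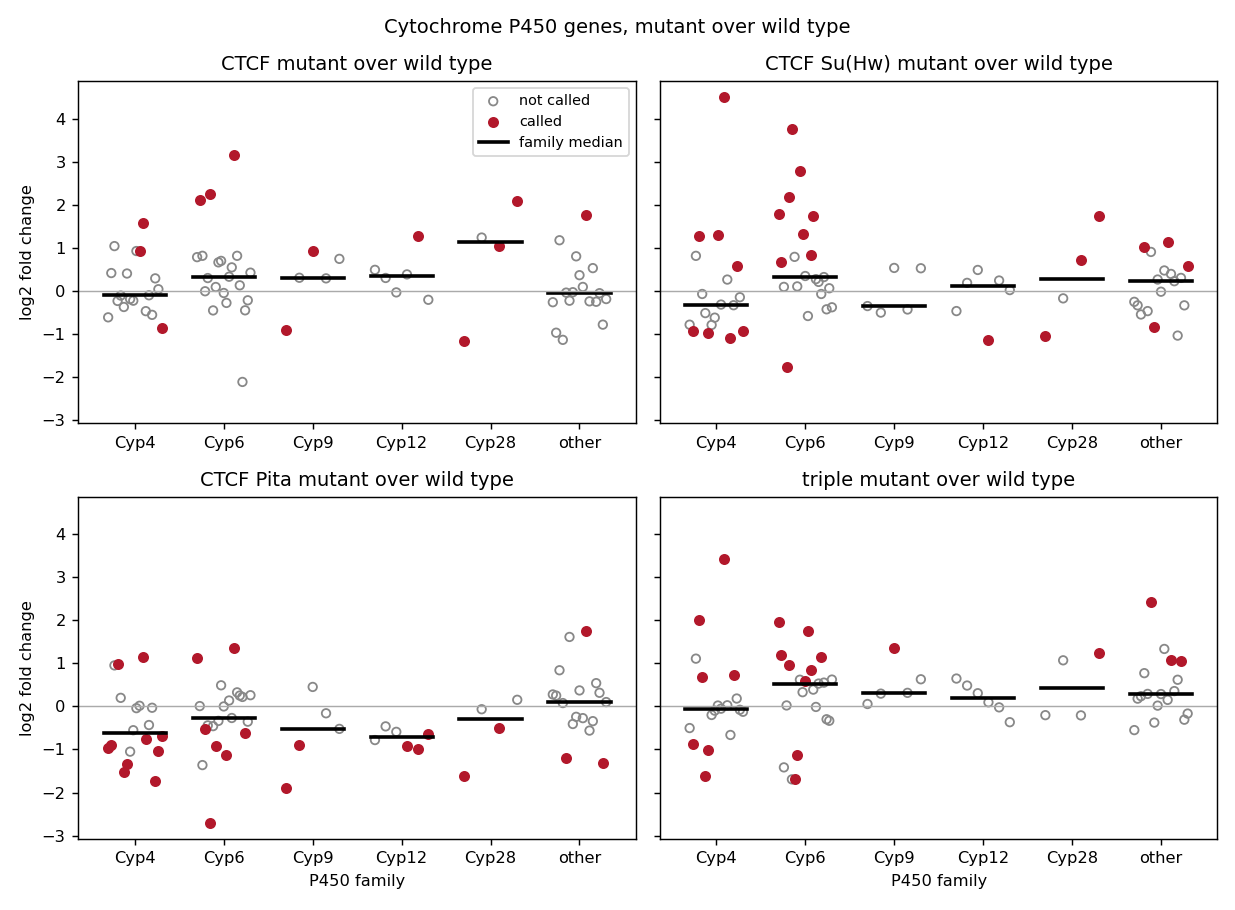
Log2 fold change over wild type of the 71 tested P450 genes, with 1 panel per mutant and 1 point per gene, grouped by family on the x axis. Filled points were called and bars mark family medians under TMM scaling. The Cyp4, Cyp6, Cyp9, Cyp12 and Cyp28 medians lie below 0 in CTCF Pita larvae. Library totals turn those of Cyp6 (0.23) and Cyp28 (0.19) there, and move the median of all genes to 0.48. Cyp6 medians lie above 0 in the other 3 mutants. Library totals turn that of CTCF larvae (-0.25), where the median of all genes is then -0.59.

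The Cyp6 family, which includes the best-known insecticide-resistance genes of the fly, is the largest and held the most genes that rose in 3 of the 4 mutants. Its share called higher was 14.3% in CTCF, 38.1% in CTCF Su(Hw) and 33.3% in triple-mutant larvae, against 14.1%, 23.9% and 22.5% of P450 genes. The shares of Cyp28 (50%), Cyp9 (20%) and Cyp12 (16.7%) in CTCF larvae, and of Cyp28 (50%) in CTCF Su(Hw) larvae, were above that of Cyp6. Of the 21 tested Cyp6 genes, 3 rose and 0 fell in CTCF larvae, 8 rose and 1 fell in CTCF Su(Hw) larvae, 2 rose and 5 fell in CTCF Pita larvae, and 7 rose and 2 fell in triple-mutant larvae. With library totals these splits were 3 and 1, 11 and 1, 3 and 1, and 6 and 1, so the CTCF Pita split turned with the scaling. The CTCF Pita medians were then 0.23 for Cyp6 and 0.48 for all genes, against -0.27 and 0.00 under TMM scaling. Summed over all 24 genes, Cyp6 mRNA was 805 and 702 CPM in CTCF libraries, 894 and 866 in CTCF Su(Hw) libraries, 345 and 394 in CTCF Pita libraries, 530 and 582 in triple-mutant libraries, and 425 and 343 in wild-type libraries. The CTCF, CTCF Su(Hw) and triple-mutant sums lay above both wild-type sums, and the CTCF Pita sums within their range. On plain library totals all 8 mutant sums (435 to 1175 CPM) lay above both wild-type sums (377 and 336 CPM).

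Cyp6g1 (chr2R:12185667-12188431), whose overexpression gives resistance to DDT and imidacloprid, was the most raised P450 gene of the CTCF mutant. It had 196 and 178 CPM in CTCF libraries, 26.1 and 24.3 in CTCF Su(Hw) libraries, 53.3 and 53.0 in CTCF Pita libraries, 18.7 and 23.1 in triple-mutant libraries, and 24.0 and 17.9 in wild-type libraries. The CTCF libraries stood far above all others and the CTCF Pita libraries were next, while the other 2 mutants overlapped or nearly met wild type. The log2 fold change over wild type was 3.16 ± 0.18 (SE) in CTCF larvae (adjusted p = 6.05e-06) and 1.35 ± 0.17 in CTCF Pita larvae (adjusted p = 0.000344). It was 0.27 ± 0.18 in CTCF Su(Hw) larvae and -0.01 ± 0.18 in triple-mutant larvae, and neither passed the test. The CTCF call held under all 20 alternative settings, and the CTCF Pita call was lost only with a salivary glue score as covariate. The adjacent genes Cyp6g2 and Cyp6t3 were called in none of the 4 comparisons.

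Cyp6a2 (chr2R:6779749-6781491), also raised in DDT-resistant strains, moved in opposite directions in the 2 double mutants. It had 33.6 and 31.3 CPM in CTCF libraries, 91.2 and 93.8 in CTCF Su(Hw) libraries, 0.992 and 1.06 in CTCF Pita libraries, 2.78 and 1.00 in triple-mutant libraries, and 11.3 and 2.51 in wild-type libraries. The wild-type libraries were the farthest apart of that group for any P450 gene, so each contrast with wild type depends on which is used. The log2 fold change in CTCF Su(Hw) larvae was 3.75 ± 0.43 (adjusted p = 0.0002) and stayed called, between 3.00 and 5.19, when any library was left out. In CTCF Pita larvae it was -2.71 ± 0.62 (adjusted p = 0.00675), and without wild-type library 1 it was -1.29 with the call lost. In CTCF larvae it was 2.24 ± 0.44 (adjusted p = 0.0216), and the call was lost without wild-type library 2 or any CTCF or CTCF Su(Hw) library (1.52 to 3.69 over all left-out libraries, adjusted p at most 0.163) and with the glue score. Triple-mutant larvae had -1.69 ± 0.58, which missed the threshold (adjusted p = 0.0579).

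Neighbouring Cyp6 genes of the cluster at chr2R:14871366-14903095 moved apart in CTCF Su(Hw) larvae. Cyp6a23 had 252 and 239 CPM in CTCF Su(Hw) libraries, against 43.9 and 27.3 in wild-type libraries, and 25.9 to 60.2 CPM in the other mutants. Cyp6a17, the adjacent gene and one reported to shape temperature preference, had 17.5 and 19.7 CPM in CTCF Su(Hw) libraries, against 65.2 and 62.2 in wild-type libraries. The groups did not overlap for either gene. Cyp6a23 rose by 2.79 ± 0.21 on the log2 scale (adjusted p = 1.32e-05) and Cyp6a17 fell by 1.77 on that scale (SE 0.16, adjusted p = 3.57e-05), and both calls held in all alternatives. These are similar copies, and reads that fit more than 1 place were not counted, so only their distinct stretches enter the counts. Cyp6a8, an inducible gene of the same cluster, had 27.5 and 29.3 CPM in CTCF Su(Hw) libraries against 11.9 and 10.8 in wild-type libraries (1.32 ± 0.29, adjusted p = 0.00661), which did not hold without wild-type library 2 or CTCF Su(Hw) library 2 (1.22 to 1.39, adjusted p at most 0.0552) and with the glue score. Cyp6a22, at the other end, had 5.95 and 3.37 CPM in CTCF Pita libraries and 3.10 and 5.23 in triple-mutant libraries, against 9.31 and 8.15 in wild-type libraries. Its calls in CTCF Pita larvae (-0.93 ± 0.31, adjusted p = 0.0358) and triple-mutant larvae (-1.13 ± 0.33, adjusted p = 0.0302) were each lost when a wild-type library, a CTCF Su(Hw) library or 1 library of the mutant was left out (-1.49 to -0.56, adjusted p at most 0.214), with library totals and with the glue score.

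Further Cyp6 genes rose in CTCF Su(Hw) larvae. Cyp6d5 (chr3R:14029228-14031483) had 188 and 187 CPM there, against 64.4 and 48.2 CPM in wild type (1.73 ± 0.17, adjusted p = 7.24e-05). Cyp6a18 (chr3R:27478675-27482904) had 53.7 and 50.8 CPM in CTCF Su(Hw) libraries, against 11.6 and 11.4 CPM in wild type (2.18 ± 0.27, adjusted p = 0.000321). Both groups were clear of wild type and both calls held in all alternatives. Cyp6a18 was also called in triple-mutant larvae, at 22.6 and 22.1 CPM (0.96 ± 0.28, adjusted p = 0.0303), but that call was lost when any of 8 libraries was left out, the exceptions being those of CTCF Pita larvae (0.92 to 0.97, adjusted p at most 0.14), and with library totals and the glue score.

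A second cluster, at chr2R:8564187-8572147, held the neighbours Cyp6a14 and Cyp6a13, which were both called higher in CTCF Su(Hw) and triple-mutant larvae. Cyp6a14 had 177 and 119 CPM in CTCF libraries, 58.7 and 50.6 in CTCF Su(Hw) libraries, 27.8 and 41.0 in CTCF Pita libraries, 69.8 and 87.0 in triple-mutant libraries, and 37.7 and 30.9 in wild-type libraries. Its rise was 2.10 ± 0.24 in CTCF larvae (adjusted p = 0.00117) and held in every left-out library, but not with the glue score. Cyp6a13 had 17.9 and 10.4 CPM in CTCF libraries, 29.6 and 26.3 in CTCF Su(Hw) libraries, 19.5 and 16.5 in CTCF Pita libraries, 26.5 and 38.2 in triple-mutant libraries, and 8.17 and 8.15 in wild-type libraries. All 8 mutant libraries lay above both wild-type libraries. The Cyp6a13 calls were 1.78 ± 0.25 in CTCF Su(Hw) larvae (adjusted p = 0.000781), 1.97 ± 0.26 in triple-mutant larvae (adjusted p = 0.000341) and 1.13 ± 0.26 in CTCF Pita larvae (adjusted p = 0.00672), and the last was lost without wild-type library 1 (1.00 to 1.24 over all left-out libraries, adjusted p at most 0.0507). The CTCF Pita and triple-mutant calls were also lost with the glue score. Smaller Cyp6a14 changes called in CTCF Su(Hw) larvae (0.67 ± 0.24, adjusted p = 0.0492) and triple-mutant larvae (1.19 ± 0.24, adjusted p = 0.00484) were lost, the first without any library of either group (0.50 to 0.82, adjusted p at most 0.247) and the second without wild-type library 2 (1.02 to 1.34, adjusted p at most 0.0562), and both with the glue score.

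Cyp6d2 (chr2R:22652573-22654530) was high in triple-mutant larvae alone. It had 38.3 and 36.4 CPM there, 10.1 and 8.34 in CTCF libraries, 6.95 and 7.95 in CTCF Su(Hw) libraries, 6.57 and 3.76 in CTCF Pita libraries, and 10.3 and 12.1 in wild-type libraries. The triple-mutant call was 1.74 ± 0.22 (adjusted p = 0.000249) and held in all alternatives. The gene was lower in CTCF Pita larvae and fell by 1.14 on the log2 scale (SE 0.25, adjusted p = 0.00517), a call lost with library totals and with the glue score. Of its exon bases 51.0% overlap nsr on the other strand, and nsr itself passed no test.

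**Figure D2:**
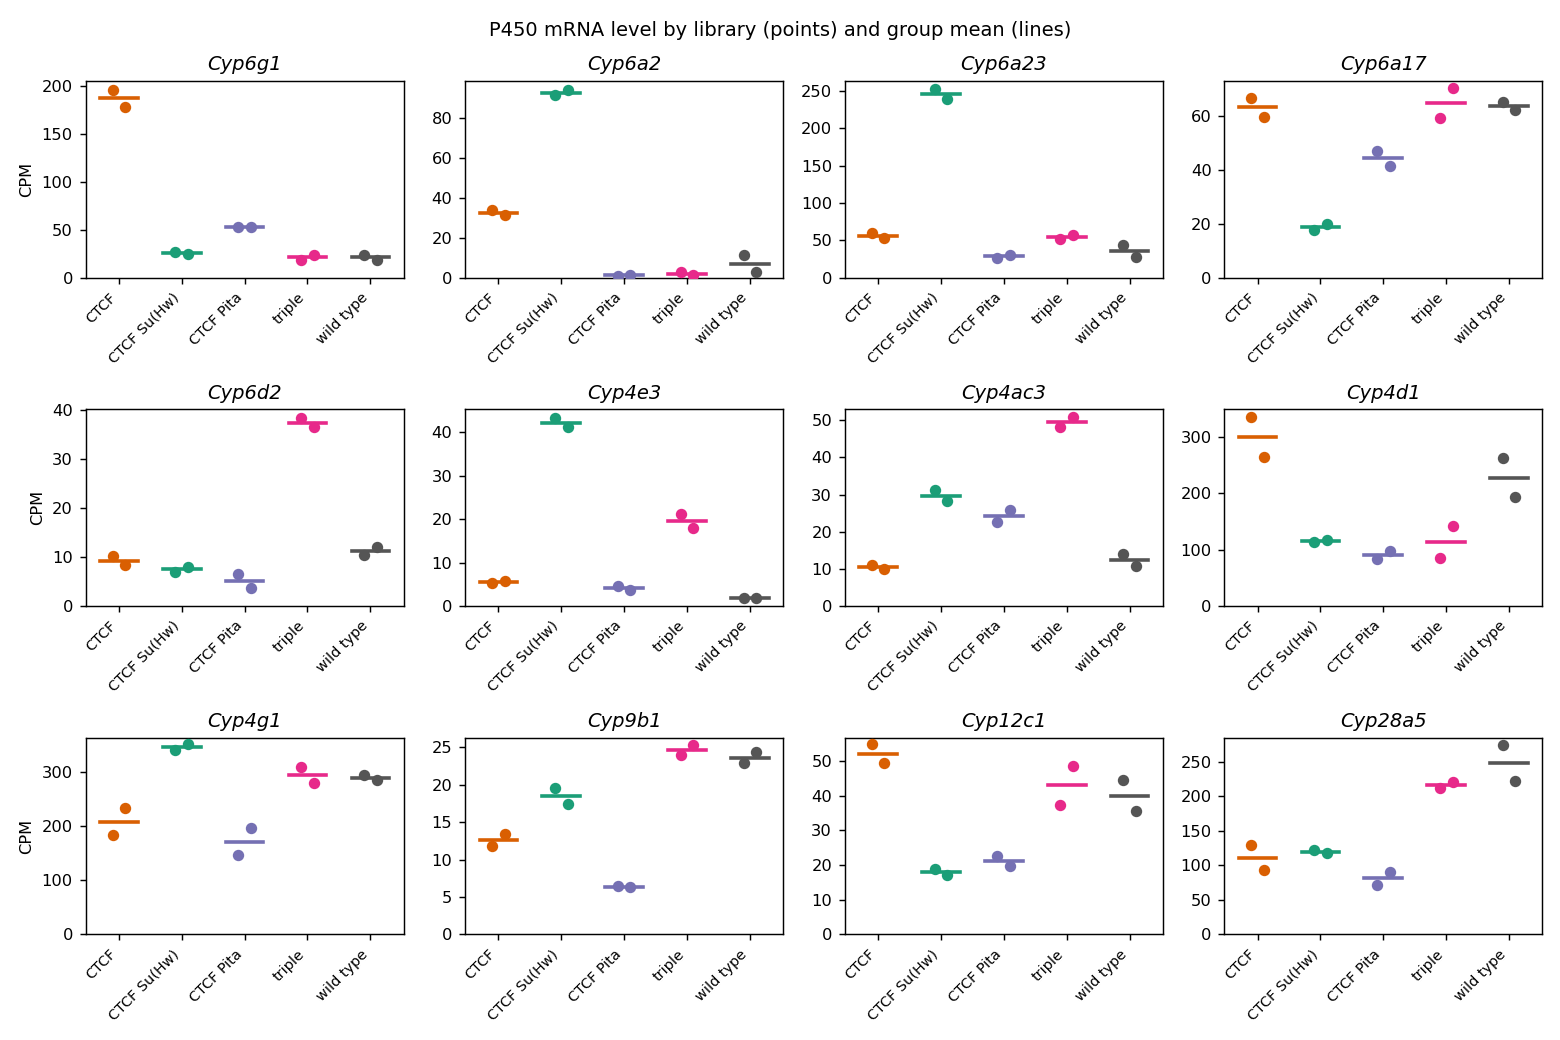
CPM (y axes, starting at 0) of 12 P450 genes in each library (points) with the group mean (lines), mutants to the left of wild type. Cyp6g1 stands out in CTCF larvae, Cyp6a2 and Cyp6a23 in CTCF Su(Hw) larvae where Cyp6a17 is lowest, and Cyp6d2 in triple-mutant larvae.

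The Cyp4 family, known for oxidation of fatty acid chains, was mixed in direction. Of 18 tested genes, 2 rose and 1 fell in CTCF larvae, 4 rose and 4 fell in CTCF Su(Hw) larvae, 2 rose and 8 fell in CTCF Pita larvae, and 4 rose and 3 fell in triple-mutant larvae. With library totals the splits were 0 and 3, 5 and 0, 2 and 3, and 3 and 3. Summed Cyp4 mRNA was 1029 and 1011 CPM in CTCF libraries, 883 and 898 in CTCF Su(Hw) libraries, 571 and 703 in CTCF Pita libraries, 919 and 994 in triple-mutant libraries, and 1070 and 935 in wild-type libraries. The CTCF Pita sums were the lowest, the CTCF Su(Hw) sums lay just under both wild-type sums, and the CTCF and triple-mutant sums overlapped them. On plain library totals the lowest Cyp4 sums were those of CTCF libraries (569 and 706 CPM, against 950 and 914 CPM in wild-type libraries), and the CTCF Pita sums (720 and 950 CPM) reached the wild-type range.

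Cyp4e3 (chr2L:9747839-9750071) had the largest fold change over wild type of the whole family. It had 5.21 and 5.81 CPM in CTCF libraries, 43.2 and 41.3 in CTCF Su(Hw) libraries, 4.59 and 3.66 in CTCF Pita libraries, 21.3 and 17.9 in triple-mutant libraries, and 1.80 and 1.88 in wild-type libraries. All 8 mutant libraries exceeded wild type, and the 4 libraries with the Su(Hw) mutation were the highest. The log2 fold changes were 4.51 ± 0.21 in CTCF Su(Hw) larvae (adjusted p = 4.88e-07) and 3.41 ± 0.22 in triple-mutant larvae (adjusted p = 4.9e-06), both held in all alternatives. The change was also called in CTCF Pita larvae, at 1.15 ± 0.26 (adjusted p = 0.00656), lost with the glue score. In CTCF larvae it was 1.58 ± 0.28 (adjusted p = 0.0135), lost without any wild-type or CTCF library (1.49 to 1.67, adjusted p at most 0.0921), with library totals and with the glue score.

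Tandem Cyp4ac genes at chr2L:5264001-5270329 split. Cyp4ac3 had 11.0 and 9.86 CPM in CTCF libraries, 31.3 and 28.2 in CTCF Su(Hw) libraries, 22.6 and 25.9 in CTCF Pita libraries, 48.2 and 50.9 in triple-mutant libraries, and 13.9 and 10.7 in wild-type libraries. It rose in the last 3 mutants, by 1.28 ± 0.17 (adjusted p = 0.000631), 0.99 ± 0.18 (adjusted p = 0.00198) and 2.01 ± 0.18 (adjusted p = 2.73e-05), and only the CTCF Pita call was lost in any alternative, with the glue score. Cyp4ac1, at the other end, had 92.0 and 90.2 CPM in CTCF libraries, 34.5 and 37.3 in CTCF Su(Hw) libraries, 34.3 and 39.2 in CTCF Pita libraries, 35.3 and 40.2 in triple-mutant libraries, and 70.4 and 66.6 in wild-type libraries. It fell in the same 3 mutants, with log2 fold changes of -0.93 ± 0.14, -0.89 ± 0.14 and -0.86 ± 0.14 (adjusted p at most 0.00155), and the CTCF Su(Hw) and CTCF Pita calls were lost with library totals. Cyp4ac2, which lies between them, was at most 2.31 CPM and was called in no comparison with wild type.

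Tandem Cyp4p genes at chr2R:9237512-9244410 also split, here in CTCF Pita larvae. Cyp4p2 had 6.45 and 5.21 CPM in CTCF Pita libraries, against 23.0 and 15.4 in wild-type libraries (-1.72 ± 0.22, adjusted p = 0.000344, held in all alternatives). Cyp4p3 had 22.7 and 20.0 CPM, against 39.7 and 47.0 CPM (-1.03 ± 0.16, adjusted p = 0.000821, lost with library totals and the glue score). Cyp4p1, between them, had 56.2 and 69.6 CPM in CTCF Pita libraries and 65.0 and 63.6 in wild-type libraries, which overlap, and rose in triple-mutant larvae to 102 and 113 CPM (0.73 ± 0.15, adjusted p = 0.00462, lost with the glue score). Cyp4p2 had a small CTCF Su(Hw) change (0.57 ± 0.20, adjusted p = 0.0444) that was lost without wild-type library 2 or any CTCF or CTCF Su(Hw) library (0.28 to 0.89, adjusted p at most 0.356) and with the glue score.

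Among abundant Cyp4 genes, Cyp4d1 (chrX:2159145-2162180) had 336 and 265 CPM in CTCF libraries, 114 and 118 in CTCF Su(Hw) libraries, 82.8 and 97.4 in CTCF Pita libraries, 85.0 and 142 in triple-mutant libraries, and 262 and 193 in wild-type libraries. The 6 double- and triple-mutant libraries all lay below wild type. The CTCF Pita call was -1.33 ± 0.25 (adjusted p = 0.00237) and held in all alternatives. The CTCF Su(Hw) call (-0.97 ± 0.24, adjusted p = 0.0122) was lost without wild-type library 1 or either CTCF Su(Hw) library (-1.20 to -0.74, adjusted p at most 0.111) or with library totals, and the triple-mutant call (-1.01 ± 0.25, adjusted p = 0.0135) without wild-type library 1 or triple-mutant library 1 (-1.42 to -0.68, adjusted p at most 0.119). Cyp4g1, the hydrocarbon enzyme, had 185 and 233 CPM in CTCF libraries, 341 and 353 in CTCF Su(Hw) libraries, 146 and 196 in CTCF Pita libraries, 310 and 280 in triple-mutant libraries, and 294 and 285 in wild-type libraries. Its CTCF Pita call (-0.76 ± 0.19, adjusted p = 0.00971) was lost without wild-type library 1 or CTCF Pita library 1 (-1.00 to -0.57, adjusted p at most 0.0757), with library totals and with the glue score. Of the 2 measured oenocyte markers only spidey, 1 gene, had enough reads for testing. They summed to 109 and 81.4 CPM in CTCF libraries, 54.8 and 53.1 in CTCF Su(Hw) libraries and 36.1 and 42.5 in CTCF Pita libraries. The sums were 52.7 and 68.3 CPM in triple-mutant libraries and 91.2 and 80.2 in wild-type libraries. The part of these markers in the Cyp4g1 result was not tested.

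Cyp4c3 had 18.2 and 26.3 CPM in CTCF libraries, 19.3 and 21.3 in CTCF Su(Hw) libraries, 10.5 and 9.54 in CTCF Pita libraries, 7.38 and 12.1 in triple-mutant libraries, and 24.3 and 33.7 in wild-type libraries. The 4 libraries with the Pita mutation were the lowest, at -1.53 ± 0.25 in CTCF Pita larvae (adjusted p = 0.00117) and -1.62 ± 0.26 in triple-mutant larvae (adjusted p = 0.00122), calls lost only with the glue score. Cyp4s3 had 35.9 and 35.1 CPM in CTCF libraries, 34.1 and 33.9 in CTCF Su(Hw) libraries, 39.3 and 41.8 in CTCF Pita libraries, 55.4 and 64.1 in triple-mutant libraries, and 72.7 and 57.3 in wild-type libraries. Its single- and double-mutant libraries all lay below wild type, with calls of -0.87 ± 0.16, -0.93 ± 0.15 and -0.68 ± 0.15 (adjusted p at most 0.0156). The CTCF call was lost without wild-type library 1 or any CTCF or CTCF Su(Hw) library (-1.03 to -0.69, adjusted p at most 0.142), the CTCF Pita call without wild-type library 1 (-0.87 to -0.51, adjusted p at most 0.0754), and both double-mutant calls with library totals. Of its exon bases 20.1% overlap Rab3-GEF, which passed no test. Cyp4g15, a P450 of the nervous system, had 3.71 and 3.64 CPM in CTCF Su(Hw) libraries against 8.98 and 6.74 in wild-type libraries (-1.09 ± 0.29, adjusted p = 0.0147), which did not hold without wild-type library 1 or either CTCF Su(Hw) library (-1.32 to -0.88, adjusted p at most 0.13) and with library totals. Cyp4e2 had 134 and 132 CPM in CTCF libraries against 79.4 and 60.8 in wild-type libraries (0.92 ± 0.17, adjusted p = 0.0158), lost without wild-type library 2, any CTCF library or CTCF Su(Hw) library 2 (0.74 to 1.13, adjusted p at most 0.159), with library totals and with the glue score.

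Only 5 Cyp9 genes were tested. Of these, 1 rose and 1 fell in CTCF larvae, and 0 were called in CTCF Su(Hw) larvae. In CTCF Pita larvae 2 fell, and in triple-mutant larvae 1 rose. The shares called were 40%, 0%, 40% and 20%, against 3.37%, 33.3%, 37.8% and 21.2% of all genes. With library totals the splits into higher and lower were 0 and 1, 2 and 0, 1 and 1, and 1 and 0. Cyp9b1 (chr2R:7127838-7129808) had 11.9 and 13.4 CPM in CTCF libraries, 19.6 and 17.4 in CTCF Su(Hw) libraries, 6.45 and 6.36 in CTCF Pita libraries, 24.0 and 25.3 in triple-mutant libraries, and 22.9 and 24.4 in wild-type libraries. Its CTCF Pita call of -1.88 ± 0.16 (adjusted p = 3.73e-05) held in all alternatives. In CTCF larvae it was -0.90 ± 0.17 (adjusted p = 0.0158), lost without wild-type library 2 or any CTCF library (-1.00 to -0.80, adjusted p at most 0.152) and with the glue score. The adjacent and far more abundant Cyp9b2 had 354 and 217 CPM in CTCF libraries, 169 and 157 in CTCF Su(Hw) libraries, 117 and 132 in CTCF Pita libraries, 295 and 274 in triple-mutant libraries, and 253 and 210 in wild-type libraries. It was called only in CTCF Pita larvae (-0.89 ± 0.22, adjusted p = 0.00954), and not without wild-type library 1 or CTCF Pita library 1 (-1.06 to -0.77, adjusted p at most 0.0748) or with library totals. Cyp9f2 had 240 and 155 CPM in CTCF libraries, 146 and 153 in CTCF Su(Hw) libraries, 123 and 160 in CTCF Pita libraries, 256 and 274 in triple-mutant libraries, and 115 and 92.1 in wild-type libraries. All 8 mutant libraries exceeded wild type, and the triple-mutant call (1.36 ± 0.22, adjusted p = 0.00141) was lost only with the glue score. The CTCF call (0.93 ± 0.22, adjusted p = 0.0464) was lost without any wild-type or CTCF Su(Hw) library or CTCF library 1 (0.60 to 1.20, adjusted p at most 0.327), with library totals and with the glue score.

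Mitochondrial Cyp12 genes were called 1 time higher in CTCF larvae, 1 time lower in CTCF Su(Hw) larvae, 3 times lower in CTCF Pita larvae and 0 times in triple-mutant larvae, of 6 tested. In CTCF Pita larvae all 6 log2 fold changes were below 0 (median -0.71). With library totals 0 of the 6 were called, and the median was -0.22, against 0.48 for all genes. Averaged over the 5 genotypes, Cyp12a5 was the family's most abundant gene per kb (19.5 CPM per kb, against 18.4 for Cyp12c1). In wild type alone Cyp12c1 (21.2) and Cyp12e1 (20.2) were above it (17.7). Cyp12a5 had 42.8 and 36.7 CPM in CTCF libraries, 37.5 and 35.8 in CTCF Su(Hw) libraries, 23.3 and 23.5 in CTCF Pita libraries, 52.5 and 37.2 in triple-mutant libraries, and 35.9 and 28.7 in wild-type libraries. The CTCF Pita libraries were the lowest, yet none of its comparisons with wild type passed the test. Cyp12c1 (chr3L:18684259-18686319) had 54.7 and 49.3 CPM in CTCF libraries, 18.7 and 17.1 in CTCF Su(Hw) libraries, 22.4 and 19.7 in CTCF Pita libraries, 37.4 and 48.4 in triple-mutant libraries, and 44.4 and 35.4 in wild-type libraries. Both double mutants were low and the triple mutant was within the wild-type range or just above it. The calls were -1.15 ± 0.18 in CTCF Su(Hw) larvae (adjusted p = 0.00125), held in all alternatives, and -0.92 ± 0.18 in CTCF Pita larvae (adjusted p = 0.00318), lost with library totals. Cyp12d1-p, another DDT-resistance gene, had 16.2 and 16.7 CPM in CTCF libraries, 9.73 and 6.32 in CTCF Su(Hw) libraries, 4.09 and 2.80 in CTCF Pita libraries, 6.31 and 7.24 in triple-mutant libraries, and 7.84 and 5.80 in wild-type libraries. It was higher in CTCF larvae (1.27 ± 0.27, adjusted p = 0.0313) and lower in CTCF Pita larvae (-1.00 ± 0.30, adjusted p = 0.0224). The first call was lost without any wild-type or CTCF library (1.07 to 1.50, adjusted p at most 0.234), the second without wild-type library 1 or CTCF Pita library 2 (-1.29 to -0.74, adjusted p at most 0.155), and both with library totals and the glue score.

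All 4 Cyp28 genes were tested. Relatives of this family are induced by cactus alkaloids in Drosophila mettleri. Of the 4, 2 rose and 1 fell in CTCF larvae and again in CTCF Su(Hw) larvae, 2 fell in CTCF Pita larvae and 1 rose in triple-mutant larvae. With library totals the splits were 1 and 1, 2 and 0, 0 and 1, and 1 and 0. Cyp28a5 (chr2L:13977302-13979569) had 129 and 93.3 CPM in CTCF libraries, 122 and 117 in CTCF Su(Hw) libraries, 72.0 and 90.9 in CTCF Pita libraries, 211 and 220 in triple-mutant libraries, and 274 and 222 in wild-type libraries. Single- and double-mutant libraries were all at or under 129 CPM, while the triple mutant was just below wild type and not called. The falls were -1.16 ± 0.20 in CTCF larvae (adjusted p = 0.0106), -1.05 ± 0.19 in CTCF Su(Hw) larvae (adjusted p = 0.0029) and -1.60 ± 0.20 in CTCF Pita larvae (adjusted p = 0.000263). The last held in all alternatives, the second was lost with library totals, and the first was lost without wild-type library 1 or CTCF library 2 (-1.39 to -0.95, adjusted p at most 0.0873).

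The tandem genes Cyp28d2 and Cyp28d1 (chr2L:5207267-5212445) went the other way in CTCF larvae. Cyp28d2 had 24.6 and 17.4 CPM in CTCF libraries, 16.4 and 16.3 in CTCF Su(Hw) libraries, 6.57 and 4.43 in CTCF Pita libraries, 8.56 and 15.5 in triple-mutant libraries, and 5.55 and 4.23 in wild-type libraries. Its CTCF call (2.10 ± 0.32, adjusted p = 0.00647) was lost without wild-type library 2 or CTCF library 1 (1.85 to 2.32, adjusted p at most 0.0781), its CTCF Su(Hw) call (1.74 ± 0.31, adjusted p = 0.00239) held without any library, and its triple-mutant call (1.24 ± 0.33, adjusted p = 0.0194) was lost without any wild-type library or triple-mutant library 2 (0.80 to 1.66, adjusted p at most 0.128). All 3 were lost with the glue score. Cyp28d1 had 50.3 and 44.7 CPM in CTCF libraries, 37.5 and 38.2 in CTCF Su(Hw) libraries, 17.9 and 14.8 in CTCF Pita libraries, 20.5 and 19.5 in triple-mutant libraries, and 22.4 and 24.0 in wild-type libraries. It was higher in CTCF larvae (1.03 ± 0.16, adjusted p = 0.00623) and CTCF Su(Hw) larvae (0.71 ± 0.15, adjusted p = 0.00592) and lower in CTCF Pita larvae (-0.51 ± 0.16, adjusted p = 0.0269). These were lost without CTCF library 1 (adjusted p at most 0.0646), without wild-type library 1 or CTCF Su(Hw) library 2 (at most 0.0595), and without any wild-type library or CTCF Pita library 2 (at most 0.146). All 3 were lost with the glue score, and the CTCF and CTCF Pita calls also with library totals.

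**Figure D3:**
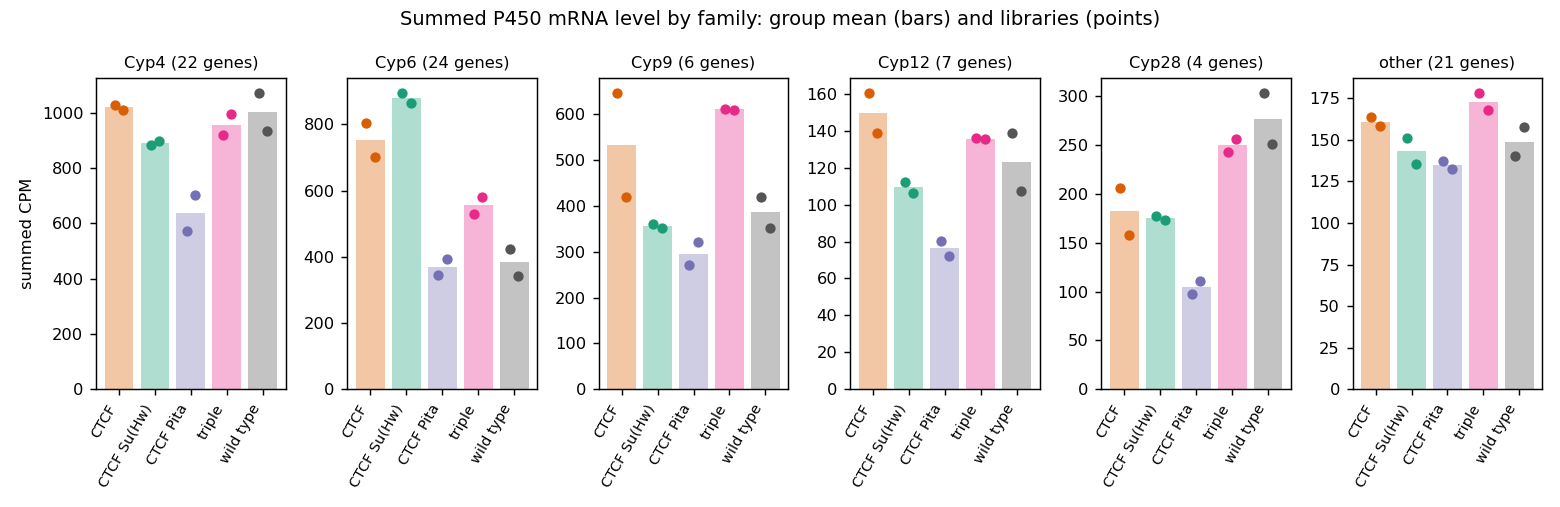
Summed CPM of each P450 family (y axes, starting at 0), with bars for the group mean of 2 libraries and points for libraries, mutants to the left of wild type. Cyp4, Cyp9, Cyp12 and Cyp28 means are lowest in CTCF Pita larvae under TMM scaling, but on plain library totals they are lowest in CTCF larvae, and Cyp6 sums are above wild type in CTCF, CTCF Su(Hw) and triple-mutant libraries under both scalings.

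Of 17 tested genes of the smaller families, 1 was called in CTCF larvae, 4 in CTCF Su(Hw) larvae, 3 in CTCF Pita larvae and 3 in triple-mutant larvae. The splits into higher and lower were 1 and 0, 3 and 1, 1 and 2, and 3 and 0, and with library totals 0 and 3, 4 and 0, 3 and 0, and 3 and 0. Cyp313a3 had 5.50 and 8.59 CPM in CTCF libraries, 4.82 and 4.41 in CTCF Su(Hw) libraries, 7.56 and 6.56 in CTCF Pita libraries, 2.25 and 2.41 in triple-mutant libraries, and 2.12 and 2.04 in wild-type libraries. The rise was 1.76 ± 0.32 in CTCF larvae (adjusted p = 0.0139), 1.14 ± 0.30 in CTCF Su(Hw) larvae (adjusted p = 0.0146) and 1.75 ± 0.29 in CTCF Pita larvae (adjusted p = 0.00136). The first was lost without any wild-type library or CTCF library 2 (1.39 to 2.06, adjusted p at most 0.112), the second without any library of its 2 groups (1.07 to 1.20, adjusted p at most 0.0875), all 3 with the glue score and the first also with library totals. Its neighbour Cyp313a5 was higher in triple-mutant larvae alone, at 9.63 and 9.45 CPM against 4.74 and 4.23 CPM in wild type (1.09 ± 0.28, adjusted p = 0.0163), which did not hold without any wild-type library or triple-mutant library 1 (0.98 to 1.17, adjusted p at most 0.112) and with the glue score.

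Cyp18a1, the enzyme that inactivates ecdysone, was called in no comparison with wild type. It had 16.8 and 17.7 CPM in CTCF libraries, 19.2 and 15.5 in CTCF Su(Hw) libraries, 22.3 and 27.9 in CTCF Pita libraries, 13.9 and 14.5 in triple-mutant libraries, and 17.2 and 24.3 in wild-type libraries. Cyp310a1 had 11.7 and 9.38 CPM in CTCF Su(Hw) libraries against 18.5 and 19.1 in wild-type libraries (-0.83 ± 0.18, adjusted p = 0.00601), lost without CTCF Su(Hw) library 2 (-1.00 to -0.69, adjusted p at most 0.0779), with library totals and with the glue score. Cyp49a1 had 13.3 and 14.2 CPM in CTCF Su(Hw) libraries against 8.98 and 9.56 in wild-type libraries (0.57 ± 0.17, adjusted p = 0.0241), lost without any library of the 2 groups (0.52 to 0.61, adjusted p at most 0.146) and with the glue score. Cyp309a1 had 24.9 and 7.81 CPM in the CTCF Pita libraries, which lay far apart, against 33.5 and 39.9 in wild-type libraries. Its call (-1.19 ± 0.38, adjusted p = 0.0301) was lost without any wild-type library, CTCF Su(Hw) library 1 or CTCF Pita library 2 (-2.24 to -0.57, adjusted p at most 0.114), with library totals and with the glue score.

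**Figure D4:**
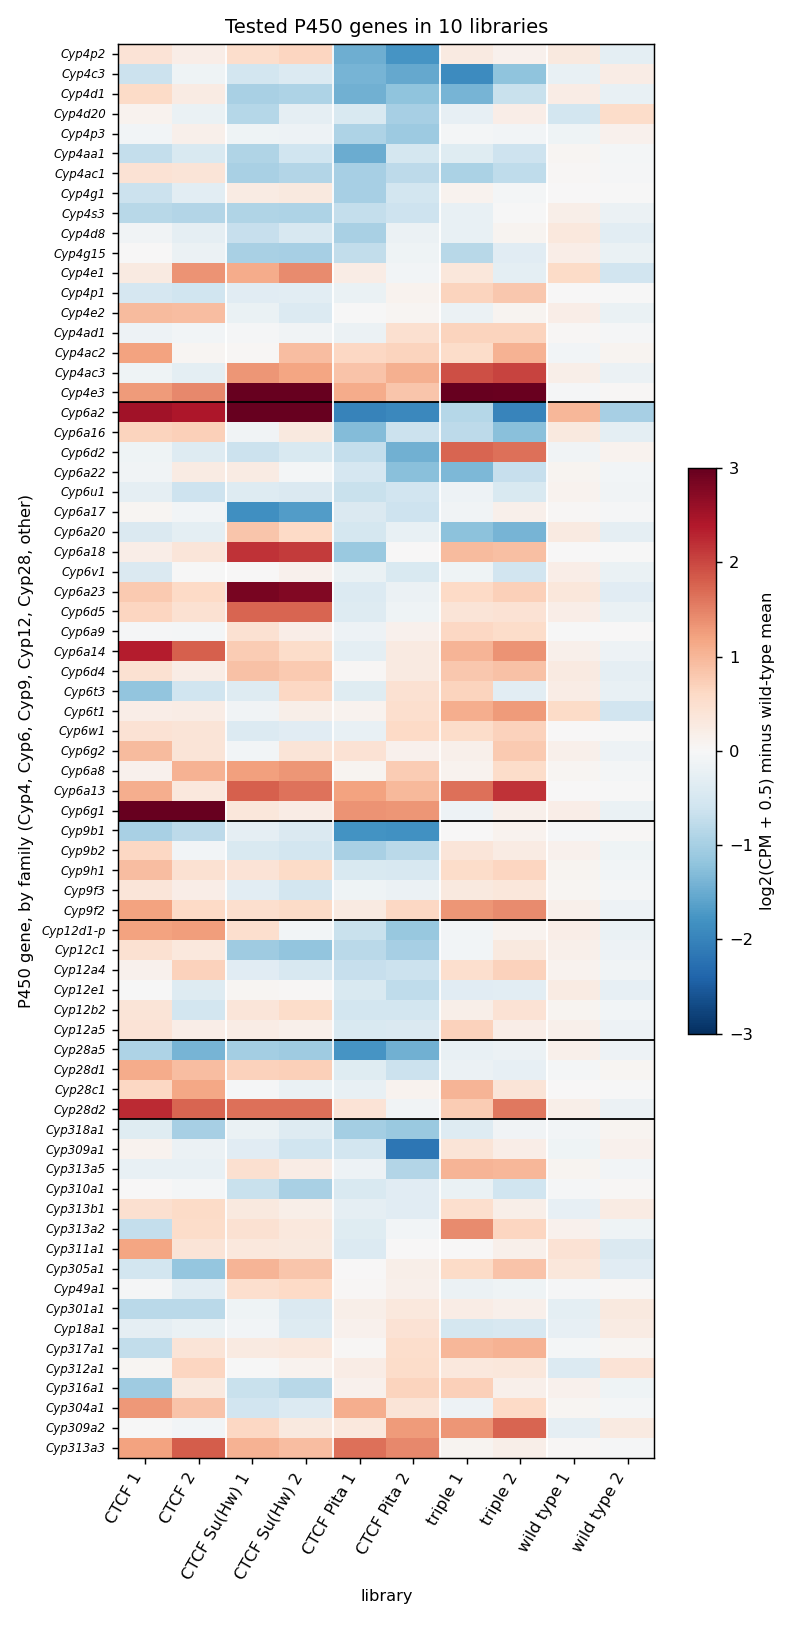
Log2(CPM + 0.5) minus the wild-type mean for the 71 tested P450 genes (rows, by family, sorted within a family) in each of the 10 libraries (columns, mutants to the left of wild type). The colour scale stops at -3 and 3. Cyp4e3, Cyp6a2 and Cyp6a23 reach or near the upper end in CTCF Su(Hw) libraries and Cyp6g1 in CTCF libraries, and all 6 Cyp12 genes are below the wild-type mean in CTCF Pita libraries, where library totals would raise every cell by about 0.49.

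A second mutation was added to the CTCF mutant in 2 ways. With the Su(Hw) mutation added, 28 of 71 P450 genes differed between CTCF Su(Hw) and CTCF larvae, 12 higher and 16 lower (39.4%), against 41.4% of all genes. With the Pita mutation added, 31 differed between CTCF Pita and CTCF larvae, 3 higher and 28 lower (43.7%), against 44.1% of all genes. The share lower in the Pita step was 39.4%, against 22.6% of all genes, but the split depends on scaling. Library totals moved the median gene by 1.06 in both steps. They gave 41 higher and 2 lower P450 genes in the Su(Hw) step and 32 higher and 7 lower in the Pita step. Over all genes they gave 6815 higher and 379 lower in the Su(Hw) step, and 6941 higher and 383 lower in the Pita step. Without CTCF Su(Hw) library 2 the Su(Hw) count fell, and so did the number of all genes called. Both steps share the CTCF libraries. The su(Hw) mRNA was itself higher by 4.52 on the log2 scale in the Su(Hw) step, and pita mRNA by 2.79 in the Pita step. Each added mutation thus cannot be told apart from the raised mRNA of its gene.

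In each step 8 calls held in every alternative that tested them, and others no smaller than some of these, such as Cyp12c1 in the Su(Hw) step (-1.53 ± 0.19) and Cyp28d1 in the Pita step (-1.55 ± 0.16), were lost with library totals. Cyp4e3 was higher in CTCF Su(Hw) than in CTCF larvae by 2.93 ± 0.19 (adjusted p = 5.56e-06), Cyp6a23 by 2.13 ± 0.21 (adjusted p = 6.87e-05), Cyp6a18 by 1.88 ± 0.28 (adjusted p = 0.000489) and Cyp4ac3 by 1.51 ± 0.19 (adjusted p = 0.000205). The fold change of Cyp6g1 in CTCF Su(Hw) over CTCF larvae was -2.89 ± 0.17 (adjusted p = 2.52e-06) and that of Cyp6a17 was -1.76 ± 0.16 (adjusted p = 3.99e-05). Compared with CTCF larvae, CTCF Pita larvae had a log2 fold change for Cyp6a2 of -4.95 ± 0.55 (adjusted p = 0.000104), for Cyp12d1-p of -2.27 ± 0.29 (adjusted p = 0.000195), for Cyp6a14 of -2.10 ± 0.24 (adjusted p = 0.000119), for Cyp4p2 of -2.01 ± 0.23 (adjusted p = 0.000117), for Cyp28d2 of -1.94 ± 0.31 (adjusted p = 0.000667) and for Cyp6g1 of -1.82 ± 0.17 (adjusted p = 5.32e-05). Apart from those of Cyp12c1 and Cyp28d1, these calls held in all 20 alternatives.

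Whether both added mutations together gave the sum of their separate effects was asked with an interaction term, the triple mutant minus both double mutants plus the CTCF mutant. It was called for 31 of 71 P450 genes, 27 positive and 4 negative (43.7%), against 45.3% of all genes, with 38.0% positive among P450 genes and 23.2% among all genes. Library totals moved the median gene's interaction by -1.40 and gave 4 positive and 26 negative P450 calls, so only size relative to that shift is comparable. Over all genes they gave 344 positive and 6457 negative calls. The term was called for 5 of 5 tested Cyp9 genes, 4 of 4 Cyp28 genes, 4 of 6 Cyp12 genes, 6 of 18 Cyp4 genes, 7 of 21 Cyp6 genes and 5 of 17 others. With library totals 0 of the Cyp9 genes and 1 of the Cyp28 genes were called.

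Genes with the smallest adjusted p in the interaction were Cyp6a17 (2.31 ± 0.22, adjusted p = 0.000155), Cyp12c1 (2.55 ± 0.26, adjusted p = 0.000192), Cyp6d2 (3.18 ± 0.35, adjusted p = 0.000251), Cyp6a14 (2.61 ± 0.33, adjusted p = 0.000383) and Cyp4ac1 (1.38 ± 0.20, adjusted p = 0.000576). The first 4 held in all alternatives, library totals included, while Cyp4ac1 was then -0.05. Cyp6a17 gives the plainest case: 59.4 and 70.3 CPM in triple-mutant libraries overlapped 65.2 and 62.2 in wild type, whereas 17.5 and 19.7 in CTCF Su(Hw) libraries and 47.1 and 41.4 in CTCF Pita libraries did not. Cyp6a20, a gene linked to male aggression, had 0.963 and 0.804 CPM in triple-mutant libraries, 5.56 and 4.69 in CTCF Su(Hw) libraries, 1.86 and 2.41 in CTCF Pita libraries, and 2.03 and 2.27 in CTCF libraries. Negative terms were found for Cyp6a20 (-2.48 ± 0.54, adjusted p = 0.0041), Cyp6a23 (-1.17 ± 0.29, adjusted p = 0.00793), Cyp49a1 (-1.03 ± 0.26, adjusted p = 0.00793) and Cyp18a1 (-0.84 ± 0.29, adjusted p = 0.0372). With DESeq2 the Cyp49a1 and Cyp18a1 terms were lost. The Cyp18a1 term was also lost without any of 7 libraries (-0.97 to -0.65, adjusted p at most 0.154).

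**Figure D5:**
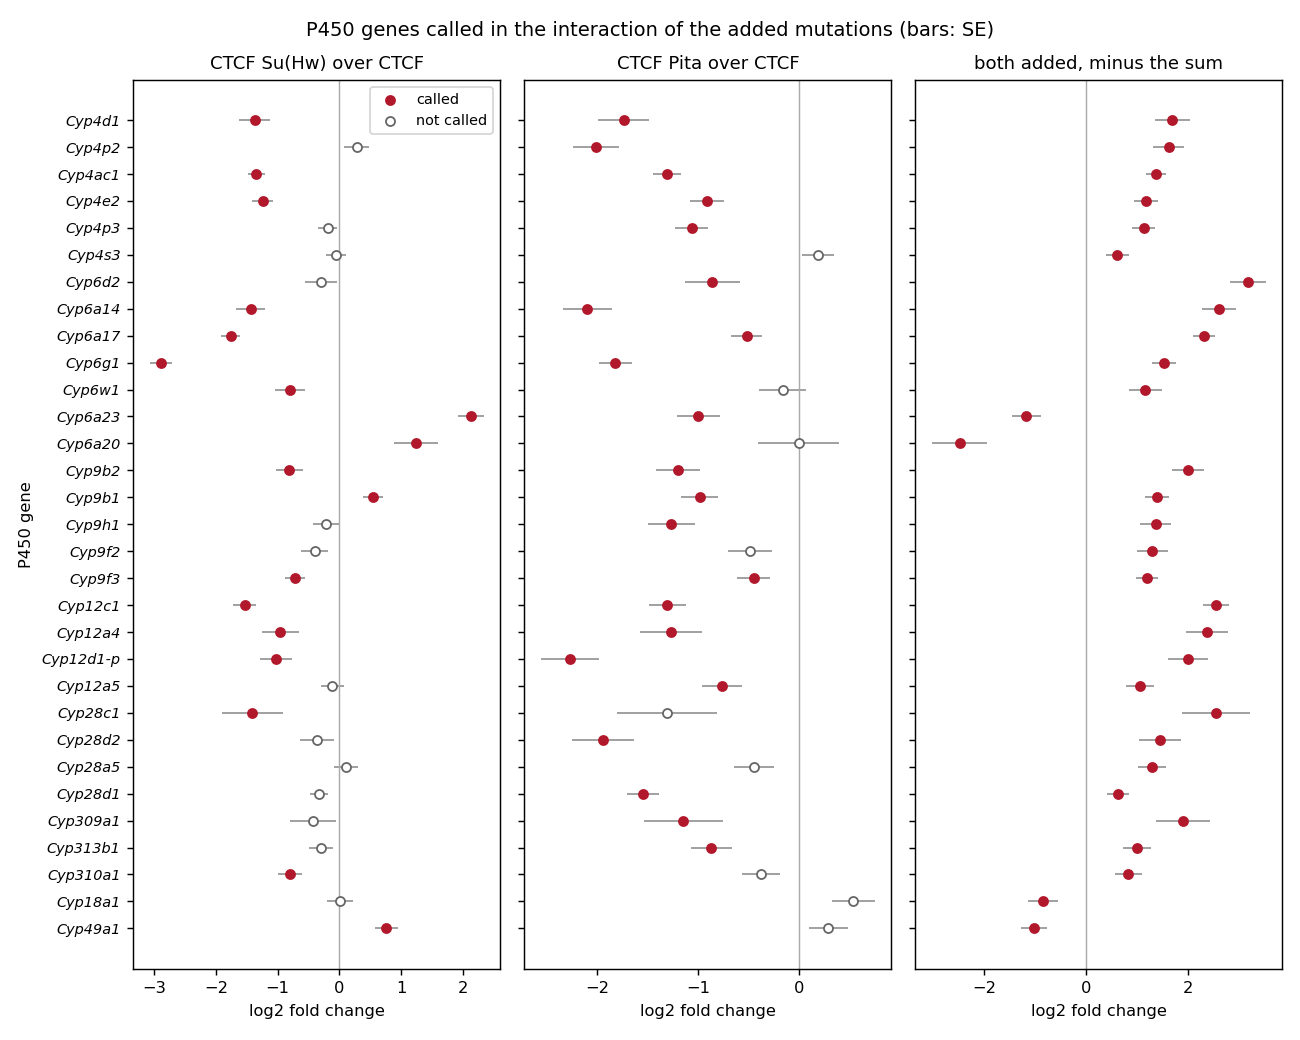
Log2 fold changes with SE of the 31 P450 genes called in the interaction, for CTCF Su(Hw) over CTCF (left), CTCF Pita over CTCF (middle) and the interaction itself (right), under TMM scaling. All 5 tested Cyp9 genes and all 4 Cyp28 genes lie right of 0 in the right panel, where library totals would move every point by about -1.40 and turn 15 of the signs.

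Genes that serve the P450 enzymes were counted from lists of symbols. Of 6 tested electron-donor genes, 0 were called in CTCF larvae, 2 fell in CTCF Su(Hw) larvae, 5 fell in CTCF Pita larvae and 1 fell in triple-mutant larvae, and 0 rose in any mutant, against 1.17%, 17.4%, 19.2% and 10.3% of all genes called lower. With library totals 3 of the 5 CTCF Pita calls held and 0 of the others. Cyt-b5 had 283 and 279 CPM in CTCF libraries, 138 and 141 in CTCF Su(Hw) libraries, 114 and 111 in CTCF Pita libraries, 182 and 225 in triple-mutant libraries, and 280 and 251 in wild-type libraries. It fell by 1.24 on the log2 scale in CTCF Pita larvae (SE 0.16, adjusted p = 0.000344), a call held in all alternatives, and by 0.93 in CTCF Su(Hw) larvae (SE 0.16, adjusted p = 0.00203), lost with library totals. Cpr, the main reductase, had 107 and 134 CPM in CTCF Pita libraries against 180 and 167 in wild-type libraries (-0.53 ± 0.16, adjusted p = 0.0261). That call was lost without any wild-type or CTCF Su(Hw) library or CTCF Pita library 1, and with library totals. It was also lost with the glue score, with a filter at 5 CPM in 2 libraries and with the CTCF Su(Hw) libraries summed. The mitochondrial ferredoxin gene Fdx2 had 18.5 and 18.4 CPM in CTCF Pita libraries against 40.3 and 38.8 in wild-type libraries (-1.10 ± 0.16, adjusted p = 0.000753, held in all alternatives).

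Of 8 tested genes of heme synthesis and breakdown, 0 were called in CTCF larvae, 4 fell in CTCF Su(Hw) larvae, 6 fell in CTCF Pita larvae and 1 fell in triple-mutant larvae, beside the same shares of all genes called lower (1.17%, 17.4%, 19.2% and 10.3%). With library totals 1 of the 6 CTCF Pita calls, that of Alas, held, and 0 of the 4 CTCF Su(Hw) calls. Alas, which makes the first committed step, had 74.9 and 80.1 CPM in CTCF libraries, 73.0 and 72.6 in CTCF Su(Hw) libraries, 40.7 and 38.7 in CTCF Pita libraries, 44.7 and 59.3 in triple-mutant libraries, and 95.7 and 107 in wild-type libraries. Its fold change was -1.36 ± 0.16 in CTCF Pita larvae (adjusted p = 0.000207, held in all alternatives) and -0.97 ± 0.16 in triple-mutant larvae (adjusted p = 0.00145, lost with the glue score). The CTCF Su(Hw) call for Alas (-0.48 ± 0.16, adjusted p = 0.0359) was lost without any library of either group and turned sign with library totals. It was also lost with DESeq2, the glue score, no filter, a filter at 5 CPM in 2 libraries and the CTCF Su(Hw) libraries summed. FeCH, which inserts the iron, had 22.3 and 23.6 CPM in CTCF Pita libraries against 44.9 and 41.8 in wild-type libraries (-0.92 ± 0.16, adjusted p = 0.00176, lost with library totals).

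Among 6 tested transcription factors of xenobiotic response, cnc, the Nrf2 relative, had 246 and 249 CPM in CTCF Su(Hw) libraries, 215 and 232 in CTCF Pita libraries, 229 and 211 in triple-mutant libraries, and 150 and 150 in wild-type libraries. The CTCF libraries, at 150 and 154 CPM, matched wild type. The rise was 0.72 ± 0.15 (adjusted p = 0.00427), 0.58 ± 0.15 (adjusted p = 0.0105) and 0.55 ± 0.15 (adjusted p = 0.0201) in those 3 mutants. The first call was lost without CTCF Su(Hw) library 2. The second was lost without any wild-type library or CTCF Pita library 2, and with the glue score. The third was lost without any wild-type or CTCF Su(Hw) library, and with library totals or the glue score. It was also lost in a fit of only the groups compared and with the CTCF Su(Hw) libraries summed. Over the 6 genes 1, 1, 2 and 1 were called higher in CTCF, CTCF Su(Hw), CTCF Pita and triple-mutant larvae, against 2.2%, 15.8%, 18.6% and 10.9% of all genes. Lower calls numbered 0, 1, 0 and 0, against 1.17%, 17.4%, 19.2% and 10.3%. The fall was of maf-S in CTCF Su(Hw) larvae. The second rise in CTCF Pita larvae was of ss (0.98 ± 0.31, adjusted p = 0.0298). It was lost without any wild-type library or CTCF Pita library 2, with DESeq2, with no filter, with the groups compared alone and with the glue score. In CTCF larvae ss alone, a partner of the bHLH-PAS protein tgo, was called, at 16.8 and 18.7 CPM against 1.80 and 1.57 CPM in wild type (3.39 ± 0.29, adjusted p = 0.000166, held in all alternatives). P450 genes with other symbols, the Halloween genes of ecdysone synthesis, gave 4 tested genes. Higher calls numbered 1, 0, 0 and 0 in CTCF, CTCF Su(Hw), CTCF Pita and triple-mutant larvae. Lower calls numbered 0, 0, 1 and 1, beside the same shares of all genes. Of these spok was higher in CTCF larvae, at 34.4 and 24.5 CPM against 13.6 and 8.62 CPM (1.41 ± 0.28, adjusted p = 0.0228). That call did not hold without wild-type library 2 or any CTCF or CTCF Su(Hw) library. It was also lost with library totals, with the glue score and with the CTCF Su(Hw) libraries summed. The ecdysone synthesis gene phtm, once called phm, was lower in CTCF Pita larvae, at 4.96 and 6.36 CPM against 12.6 and 9.56 CPM (-0.95 ± 0.25, adjusted p = 0.0126), and in triple-mutant larvae, at 4.49 and 6.23 CPM (-1.08 ± 0.26, adjusted p = 0.0132). Both phtm calls were lost without wild-type library 1 and without library 1 of the mutant. The CTCF Pita call was also lost with library totals and with DESeq2, and the triple-mutant call in a fit of only the groups compared.

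Markers of larval tissues, P450-rich ones among them, were followed in each library, and their part in the P450 results was not tested. The 4 Malpighian tubule markers summed to 99.8 and 126 CPM in CTCF libraries, 140 and 150 in CTCF Su(Hw) libraries, 51.3 and 60.0 in CTCF Pita libraries, 111 and 87.8 in triple-mutant libraries, and 145 and 148 in wild-type libraries. Of the 4, 0, 2, 2 and 1 were called lower in CTCF, CTCF Su(Hw), CTCF Pita and triple-mutant larvae, and 0 higher. The shares of all genes called lower were 1.17%, 17.4%, 19.2% and 10.3%. The 6 fat body markers summed to 69256 to 76722 CPM in CTCF libraries, 48054 to 49035 in CTCF Su(Hw) libraries, 39077 to 41627 in CTCF Pita libraries, 32448 to 38357 in triple-mutant libraries, and 48338 to 56628 in wild-type libraries. Their directions differed: Fbp1 was called higher in all 4 mutants, and Lsp1alpha also in CTCF larvae. In triple-mutant larvae Lsp1alpha and Lsp1beta were called lower, and in the other mutants 0 of the 6 were. The 8 midgut markers were between 2047 and 4412 CPM in the single- and double-mutant libraries, 4394 and 8165 in triple-mutant libraries, and 4148 and 2085 in wild-type libraries. Of the 8, 1, 3, 2 and 5 were called higher in CTCF, CTCF Su(Hw), CTCF Pita and triple-mutant larvae, and 1 lower in CTCF Su(Hw) larvae. The shares of all genes called higher were 2.2%, 15.8%, 18.6% and 10.9%. The 4 larval cuticle markers summed to 35512 and 37168 CPM in CTCF libraries, 13474 to 14268 in the other mutants, and 33695 and 32185 in wild-type libraries. The 3 brain markers summed to 138 and 153 CPM in CTCF Su(Hw) libraries, 35.3 to 72.6 in the other mutants, and 39.0 and 40.1 in wild-type libraries. The 4 testis markers summed to 2.31 to 22.2 CPM in mutant libraries and to 5.06 and 6.58 in wild-type libraries, with 1 at 0 in CTCF library 1 and none at 0 elsewhere.

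Salivary glue genes, which switch on late in the 3rd instar, varied most. The 6 genes summed to 1259 and 474 CPM in CTCF libraries, 582 and 612 in CTCF Su(Hw) libraries, 3110 and 2337 in CTCF Pita libraries, 566 and 2672 in triple-mutant libraries, and 247 and 14.4 in wild-type libraries. All 8 mutant libraries were above both wild-type libraries, so a covariate made from these genes overlaps with genotype. With it in the model the P450 counts against wild type were 3 in CTCF larvae, 15 in CTCF Su(Hw) larvae, 11 in CTCF Pita larvae and 6 in triple-mutant larvae. Over all 10585 genes those counts were 67, 2193, 1081 and 721, against 357, 3520, 4001 and 2248 without it.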

How the data were processed

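Whole 3rd instar larvae were sequenced on a NovaSeq from poly(A) RNA, per the labels' protocols, with 2 libraries for each of 5 genotypes. STAR, cutadapt and the dm6 build are named in the submitters' processing notes with no version, and the annotation behind the counts is not given. The authors deposited per-gene read counts, not normalized, in unstranded and stranded columns. The unstranded column was used, since both strands held equal shares, so reads of overlapping antisense genes cannot be told apart. Reads that map to more than 1 place stand in a summary row of the deposited files and took 50.9% to 65.5% of each file's total. The summary rows that name no gene stayed out of library sizes, while 25.6% to 39.8% of each file's total was assigned to genes.

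Counts were tested with edgeR 4.0.16 (R 4.3.3, limma 3.58.1): filterByExpr, TMM scaling and quasi-likelihood F tests, with all 10 libraries in 1 model (5 residual degrees of freedom) and Benjamini-Hochberg adjustment over 10585 genes, while 7150 were removed. Standard errors are the fold change divided by the root of F. The common biological variation was 15.9%. The scripts were tested on simulated data. An exact permutation test of 2 libraries against 2 cannot go below p = 0.333 and was not used. A gene counted as called at an adjusted p under 0.05. Alternatives were DESeq2 1.42.0, other scalings and filters, only the groups compared, a replicate block, the near-identical CTCF Su(Hw) libraries summed, a glue score as covariate, and leaving out each library.

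The members and the lists were chosen with earlier results of these data known. Values in every library were given for the largest called rise and fall in each family and comparison, the most abundant gene per kb of each family (by the mean over the 5 genotypes), the 5 interaction genes with the smallest adjusted p, and Cyp6g1, Cyp6a2, Cyp6a8, Cyp12d1-p, Cyp12d1-d, Cyp4g1 and Cyp18a1. Cyp28d1, Cyp4ac2, Cyp4d1, Cyp4e2, Cyp4p1, Cyp4p3, Cyp6a18, Cyp6a20 and Cyp6a23 were added after their values were seen. Cyp6a21, present in the table of gene names, was not analysed here. Replicate numbers did not pair the libraries, as same-numbered libraries had correlations of -0.15 to 0.15 in their deviations from group means.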

Additional observations from a re-analysis of the deposited data

Results flagged for a closer look

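The log2 effect of adding both the Su(Hw) and Pita mutations to the CTCF mutant differed from the sum of their separate effects for 31 P450 genes, by the interaction term of edgeR's model (adjusted p under 0.05). The term is the triple mutant minus both double mutants plus the CTCF mutant, and no explanation for it was tested. With library totals, which move the median gene's term by -1.40, 15 of the 31 terms turn sign.

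Among Cyp9 genes it was 2.00 for Cyp9b2, 1.39 for Cyp9b1, 1.37 for Cyp9h1, 1.31 for Cyp9f2 and 1.20 for Cyp9f3. Cyp28 genes had 2.55 for Cyp28c1, 1.45 for Cyp28d2, 1.29 for Cyp28a5 and 0.63 for Cyp28d1. Cyp12 genes had 2.55 for Cyp12c1, 2.39 for Cyp12a4, 2.01 for Cyp12d1-p and 1.06 for Cyp12a5. Cyp4 genes had 1.70 for Cyp4d1, 1.62 for Cyp4p2, 1.38 for Cyp4ac1, 1.17 for Cyp4e2, 1.13 for Cyp4p3 and 0.62 for Cyp4s3. Cyp6 genes had 3.18 for Cyp6d2, 2.61 for Cyp6a14, 2.31 for Cyp6a17, 1.54 for Cyp6g1, 1.17 for Cyp6w1, -1.17 for Cyp6a23 and -2.48 for Cyp6a20. In smaller families it was 1.91 for Cyp309a1, 1.00 for Cyp313b1, 0.83 for Cyp310a1, -0.84 for Cyp18a1 and -1.03 for Cyp49a1.

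Calls for Cyp6a14, Cyp6a17, Cyp6a20, Cyp6a23, Cyp6d2 and Cyp12c1 held under all alternatives that tested them. Those for Cyp4s3, Cyp6w1, Cyp18a1, Cyp28c1, Cyp28d1, Cyp28d2, Cyp309a1, Cyp310a1 and Cyp313b1 were each lost when at least 1 of the 10 libraries was left out.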

How the results depend on the processing

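Of 176 P450 calls over the 7 comparisons, 40 held under all alternatives that tested them and 92 whenever a single library was left out. Leaving a library out leaves its group with 1, which is assumed to vary like the others. Library totals gave 15 calls in CTCF Pita larvae and 43 in the Su(Hw) step, against 27 and 28. Over all genes they gave 3979 and 7194 calls, against 4001 and 4385. The glue score gave 3, 15, 11 and 6 calls in CTCF, CTCF Su(Hw), CTCF Pita and triple-mutant larvae, against 13, 25, 27 and 21. Over all genes it gave 67, 2193, 1081 and 721 calls, against 357, 3520, 4001 and 2248. In CTCF Su(Hw) larvae the fit of only the groups compared gave 42 calls and the summed libraries 16. Without single libraries the counts ranged over 4 to 14 (CTCF), 13 to 28 (CTCF Su(Hw)), 14 to 29 (CTCF Pita), 11 to 22 (triple), 15 to 29 (Su(Hw) step), 23 to 32 (Pita step) and 25 to 33 (interaction). With a replicate block the counts were 12, 24, 27, 22, 28, 31 and 30, and DESeq2 gave 13, 20, 19, 17, 21, 26 and 25.

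Signs turned only with library totals among named genes. In the Su(Hw) step Cyp9b2 was 0.29, Cyp12d1-p 0.031, Cyp4g15 0.080 and Cyp310a1 0.27. In the Pita step Cyp6d5 was 0.26, Cyp12a5 0.31, Cyp9b1 0.079, Cyp6a22 0.037, Cyp6a17 0.55 and Cyp6d2 0.21. In the interaction Cyp9f2 was -0.15, Cyp12a5 -0.33, Cyp9b1 -0.016, Cyp4s3 -0.81, Cyp28d2 -0.0056, Cyp4ac1 -0.048, Cyp28a5 -0.16 and Cyp310a1 -0.56. Each moved by about that scaling's shift of the median gene. For the other settings the cause was not tested. Genes under the read filter limit what could be compared, and their changes were not detectable at this depth.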
